A study of Mus musculus with 9 samples.

Results

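The regions described here are 5095 stretches of intergenic chromatin, each over 50 kb from the nearest annotated start site, in which H3K27me3 was higher in the RANKL culture than in the WENRC culture of mouse duodenal organoids. They were chosen from the authors' deposited list of RANKL-higher regions as those on chromosomes 1 to 19 that are annotated as intergenic and lie beyond that distance. They make up 5095 of 35798 RANKL-higher regions, and of 49405 differential regions in both directions. The RANKL and WENRC tags of these regions therefore chose them, and their difference is given below as a description, with no test.

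Organoids (mini-guts, small epithelial cultures grown from gut tissue) of the mouse duodenum were kept in 3 cultures, which the labels name RANKL, ENRI and WENRC and assign to the intestinal M cell, the enterocyte and the intestinal stem cell. RANKL is the cytokine that drives M cell formation; the labels give no recipe for the other names, and no strain, age, dose or time. H3K27me3 was profiled by ChIP-seq in 2 RANKL libraries, which the authors pooled, and in 1 WENRC library, so each region has 1 value per culture and no replicate error. RNA synthesis was followed by GRO-seq, in which nuclei run on and the RNA then being made by engaged polymerase is sequenced, in 2 libraries per culture, 6 in all; the ENRI and WENRC libraries carry mouse numbers, the RANKL libraries only a replicate number.

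H3K27me3 is the trimethyl mark that the Polycomb repressive complex PRC2 places on histone H3 at lysine 27, and it is read by PRC1. It is best known at the CpG-rich starts of silent developmental genes, from which it can spread over broad domains. It also lies thinly over gene deserts, the long stretches between genes where distant enhancers of developmental genes are often found.

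The culture labels were checked with marker genes in GRO-seq. Of 19 tested M cell markers, 13 were higher in RANKL than in WENRC and 14 higher than in ENRI, with none lower in either comparison (limma, Benjamini-Hochberg adjusted p under 0.05). Over all tested genes 8.53% were higher and 3.62% lower than in WENRC, and 10.4% higher and 10.5% lower than in ENRI. Gp2, the M cell receptor for bacterial fimbriae, stood at 8.56 and 8.65 in the RANKL libraries (log2), at 2.56 and 3.72 in ENRI and at 2.66 and 3.29 in WENRC. The stem cell markers, which bear on the WENRC label, were mixed: of 15 tested, 2 were higher and 2 lower in RANKL than in WENRC, and 7 were higher than in ENRI. Their summed level ranged from 15.17 to 15.23 (log2) in RANKL, 13.67 to 14.29 in ENRI and 15.51 to 15.54 in WENRC. Lgr5 was lower in RANKL than in WENRC by -3.02, while Ascl2 (-0.21, limma adjusted p = 0.541), Smoc2 (-1.07, adjusted p = 0.112) and Olfm4 (2.0, adjusted p = 0.112) did not pass the limma test. In the authors' deposited table (DESeq2) the adjusted p was 0.698 for Ascl2, 2.15e-18 for Smoc2 and 5.46e-36 for Olfm4. Markers of other lineages were higher in RANKL than in WENRC as well, with 6 of 18 enterocyte, 5 of 8 goblet and 3 of 8 Paneth markers called. The enterocyte markers bear on the ENRI label, and 10 of the 18 were lower in RANKL than in ENRI, with none higher. The summed goblet markers ranged from 13.64 to 13.68 (log2) in RANKL, 13.33 to 13.86 in ENRI and 10.86 to 11.87 in WENRC, and the summed enterocyte markers from 15.39 to 15.52, 16.58 to 17.31 and 13.67 to 14.44. The Paneth sums ran from 11.51 to 11.63, 9.09 to 10.17 and 9.54 to 10.01. Fibroblast genes were near the bottom of the scale, with 6 of 7 (Col1a1, Col1a2, Col3a1, Dcn, Lum and Pdgfra) below the filter on low values; the other, Pdgfrb, was higher in RANKL by a log2 difference of 2.45 against WENRC and 1.94 against ENRI. The part of this mixture in the differences below was not tested, and in such bulk cultures fewer cells of a type and less signal per cell cannot be told apart. Per the file headers, the RANKL GRO-seq libraries combine reads of a repeat sequencing that is not named for the others, so that sequencing batch and culture cannot be told apart either.

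The regions were short and carried few tags. Together they covered 3.65 Mb; 3129 (61.4%) had the shortest length, 500 bp, and the longest spanned 13277 bp. A region held a median of 25 pooled RANKL tags (quartiles 21 and 34, range 16 to 774) and a median of 8.1 WENRC tags, which the authors had scaled by 0.9 to the RANKL depth (quartiles 6.3 and 12.6). The pooled RANKL depth, worked back from the deposited normalized tags, was about 32700000 tags and that of WENRC about 36300000. Summed over all regions, RANKL gave 171601 tags, or 47.0 per kb, and WENRC 59538, or 16.3 per kb.

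The authors' fold had a median of 3.02 (quartiles 2.65 and 3.52), and 789 regions (15.5%) reached 4-fold. Among all 35798 RANKL-higher regions 13.4% reached 4-fold, and 13.9% did so among those on chromosomes 1 to 19; because the list was selected on the same tags, nothing is read from this difference. The lowest authors' fold was 2.0 and the highest authors' p-value 9.87e-05.

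**Figure D1:**
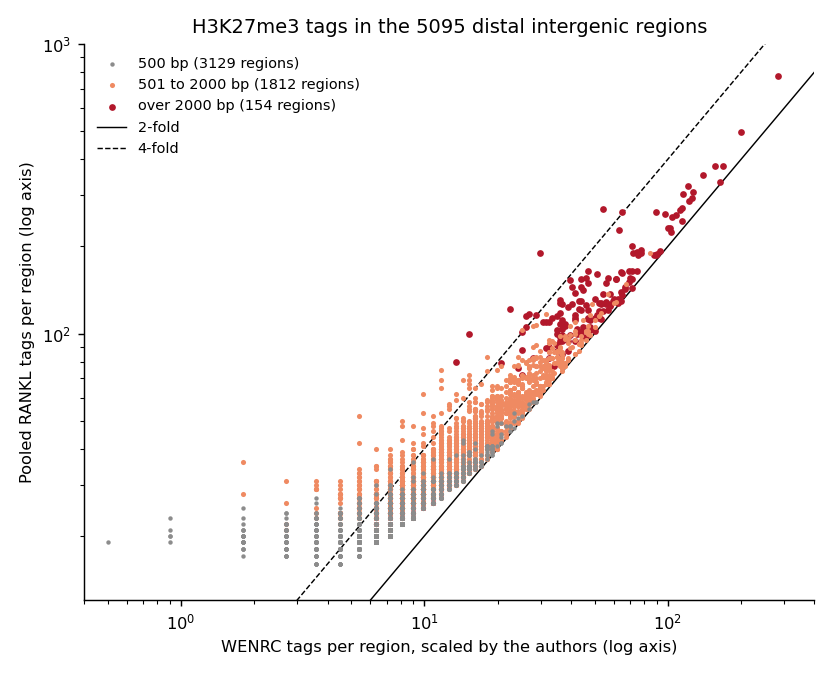
Each point is 1 of the 5095 regions, with scaled WENRC tags on the x axis and pooled RANKL tags on the y axis, both on log axes, and with lines at 2-fold and 4-fold. Most points lie between the lines; the 154 regions over 2000 bp lie at the upper right, close to the 2-fold line, with a median fold of 2.53 against 3.09 for the 3129 regions of 500 bp.

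Long regions showed smaller folds than short ones. The list holds no authors' fold below 2.0 and no authors' p-value above 9.87e-05, both from the same tags. A region with few tags needs a higher fold to reach such a p-value, and the part of this in the trend was not tested. The median authors' fold was 3.09 at 500 bp, 2.96 between 500 and 1000 bp, 2.67 between 1000 and 2000 bp and 2.53 beyond 2000 bp. RANKL tags per kb differed little over these classes, with medians from 42.0 to 46.7, whereas the WENRC medians went from 14.4 to 18.7. The low end of the fold moved in the same direction, with 5% of folds below 2.31 at 500 bp and below 2.10 beyond 2000 bp. An exception among the longest was a region 144 kb downstream of the zinc-finger gene Zfp608, with 269 against 54.0 tags, a ratio of 4.98 (3.75 to 6.71).

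The region with the most tags was also the longest. It lies at chr1:34801562-34814839 (mm9), 50.4 kb upstream of Arhgef4, which encodes a guanine nucleotide exchange factor, and held 774 RANKL tags (95% Poisson interval 720 to 831) against 284 scaled WENRC tags (253 to 317). These exact Poisson intervals cover counting error only. The ratio was 2.73 with an interval of 2.39 to 3.12. The next largest, at chr9:43668363-43676227, lies 120 kb downstream of the Nectin1 start and held 497 against 200 tags, a ratio of 2.49 (2.12 to 2.93). Others among the 8 with most tags were nearest to Zbtb10, to the homeobox gene Lhx5 (378 against 169 tags at chr5:120771917-120778022), and to Nr2f2, an orphan nuclear receptor (309 against 127 tags at chr7:77683317-77689218).

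The largest folds rested on very few WENRC tags. A 500 bp region at chr3:157385242-157385742, within an LTR element 156 kb downstream of the prostaglandin receptor gene Ptger3, held 23 RANKL tags and 1 unscaled WENRC tag, a ratio of 25.6 with a counting interval of 4.15 to 1053. Regions near Rag2, 4930404A05Rik, Lncbate1 and Itga1 likewise held 19 to 21 RANKL tags against 1 unscaled WENRC tag. At chr5:139365526-139366284, 69.9 kb downstream of Gm5294, there were 36 RANKL tags against 2 (ratio 19.99, interval 5.15 to 171). In 1 region, near Tmem167, no WENRC tag was counted against 19 RANKL tags.

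The distance to the nearest start had a median of 103 kb (quartiles 71.2 and 166 kb), and 86 regions (1.69%) lay beyond 500 kb. The regions fell about evenly on either side of the nearest gene, with 2449 upstream and 2646 downstream. Of 7684 RANKL-higher intergenic regions 5 to 50 kb from a start, 68.6% lay upstream. Downstream of a start, sequence counts as intergenic only past the end of the gene. The part of this rule in the difference was not tested. Of WENRC-higher intergenic regions beyond 50 kb, 49.6% lay upstream. The most distant, at chr8:6886293-6886972, lies 1774 kb downstream of Efnb2, a ligand of Eph receptors, and held 32 against 10.8 tags. The 3 regions just inside the distance limit, at 50.014 to 50.026 kb near Foxo6 and 1700057H15Rik, had folds of 2.18, 2.3 and 2.59; the 3 just outside it, at 49.975 to 49.994 kb near Lrrc63, Lrpap1 and 1700123K08Rik, had folds of 3.89, 2.88 and 2.96.

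Density varied between chromosomes, from 0.893 regions per Mb on chromosome 10 to 3.19 per Mb on chromosome 8. Chromosomes 19 (3.18 per Mb), 4 (2.92) and 9 (2.76) came next. WENRC-higher regions chosen by the same distance and annotation numbered 3559, and their density did not follow the same order: on chromosome 7, RANKL-higher regions outnumbered them 2.98 to 1, and on chromosome 10 by 0.703 to 1. No test was made, as chromosomes are not replicates.

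Most regions, 3655 (71.7%), lay at their centre in no annotated repeat or CpG island. LTR elements held 468 (9.19%), LINEs 364 (7.14%) and SINEs 312 (6.12%). In WENRC-higher regions of the same kind LINEs held 11.8%, LTR elements 9.97% and SINEs 6.13%. CpG islands held 22 RANKL-higher regions and 1 WENRC-higher region. The median fold of the 22 was 2.26, below the 3.0 of regions in no element, and their median RANKL tags were 49.5.

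The CpG island region with most tags spans chr17:85884145-85887875, 132 kb downstream of the start of Six3os1, the antisense transcript beside the eye and forebrain homeobox gene Six3, and held 268 against 113 tags. A second, at chr8:94984071-94985477, lies 103 kb downstream of the homeobox gene Irx5 and held 105 against 50.4 tags. Near Bach2, a transcriptional repressor of lymphocytes, such a region at chr4:32325254-32326672 held 74 against 18.0 tags.

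The regions were crowded into runs. Of the 5095, 63.2% lay within 10 kb of another, and the median gap to the next was 5.09 kb. Among the 3559 WENRC-higher distal regions 29.0% did, and the median gap was 30.7 kb. Other RANKL-higher sets were spaced more closely still. The share was 68.7% (median gap 3.71 kb) for intergenic ones 5 to 50 kb from a start. It was 74.2% (3.09 kb) for all RANKL-higher regions on chromosomes 1 to 19. When neighbours among the 5095 at most 50 kb apart were chained, 1660 runs resulted. Only 836 regions (16.4%) stood alone, whereas 275 runs of 5 or more held 2775 regions (54.5%) and 97 runs of 10 or more held 1639 (32.2%). WENRC-higher distal regions stood alone in 40.7% of cases, and 20.6% were in runs of 5 or more. Of RANKL-higher regions in introns beyond 50 kb, 15.6% stood alone and 58.7% were in such runs. The sets differ in number, which by itself alters spacing, and the difference was not tested.

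**Figure D2:**
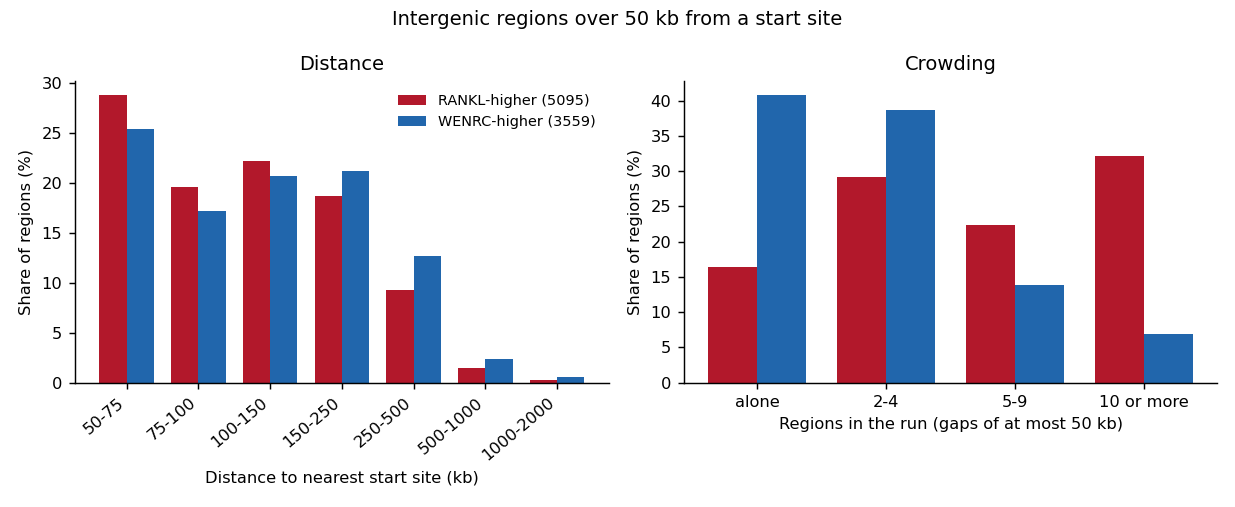
Left, the share of RANKL-higher (red, 5095) and WENRC-higher (blue, 3559) intergenic regions in each class of distance to the nearest start site; right, the share of regions that stand alone or belong to runs of 2 to 4, 5 to 9 or 10 or more. The distance profiles are similar, and 32.2% of RANKL-higher against 6.83% of WENRC-higher regions are in runs of 10 or more.

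Regions within runs had smaller folds and were longer. The median fold was 3.19 for regions that stood alone, 3.05 in runs of 2 to 4, 2.99 in runs of 5 to 9 and 2.84 in runs of 10 or more. Mean length went from 590 to 808 bp over the same classes, and the share at 4-fold or more from 24.5% to 9.88%. Median WENRC tags were 6.3 for lone regions and 9.9 in runs of 10 or more. The choice of regions by fold and p-value of the same tags bears on these folds too, and its part was not tested.

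The largest run filled the gap between Trim29, a tripartite-motif gene of stratified epithelia, and Nectin1, which encodes a junctional adhesion molecule. At chr9:43170160-43495563 it held 62 regions over 325 kb, 33 of them nearest to Trim29 and 29 to Nectin1, with 2764 RANKL against 1110 WENRC tags. The regions themselves covered 16.8% of the span, and their folds ran from 2.02 to 5.33. Beyond Nectin1 a second run, at chr9:43622631-43800864, held 36 regions up to the interval of Thy1, a surface glycoprotein, with 2757 against 1077 tags. Only 1 WENRC-higher region lay within each of the pair.

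The second largest run, of 44 regions at chr1:92151177-92440971, lay between Ackr3, a scavenging chemokine receptor, and Cops8, a COP9 signalosome subunit, with 1763 against 624 tags and no WENRC-higher region inside. The third, of 41 regions at chr8:123701747-123998805, followed Foxl1, a forkhead factor known from the gut mesenchyme, with 1895 against 730 tags. A run of 35 regions at chr7:138902940-139096839 lay upstream of Gpr26, an orphan receptor of the brain, with 1703 against 659 tags. In all 5 the ratio of summed tags lay between 2.49 and 2.83.

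Differential regions of the other direction were often close. Of the 5095 regions, 2683 (52.7%) had a WENRC-higher region within 50 kb and 801 (15.7%) within 10 kb, and 5 overlapped one. Over all RANKL-higher regions on chromosomes 1 to 19, 47.6% had one within 50 kb. The 5095 regions had 1534 nearest genes, and 800 of these (52.2%) were also the nearest gene of WENRC-higher distal regions.

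The gene with most regions of both kinds was Klf4, a zinc-finger factor of differentiating gut epithelium. Upstream of it lay 33 RANKL-higher regions, from 118 to 581 kb away (908 against 312 tags), and 18 WENRC-higher regions, from 63.0 to 435 kb away. The kinds alternated in blocks: 8 WENRC-higher regions lay nearest, between 63.0 and 102 kb, followed by 9 RANKL-higher ones between 118 and 147 kb and 8 WENRC-higher ones between 158 and 244 kb. From 256 kb outwards the regions were RANKL-higher, but for single WENRC-higher ones at 267 and 435 kb. Among the genes with most of both kinds were also BC006965, beside the Sox9 gene (17 and 16), Rybp (21 and 10), Tcim (17 and 8), the Groucho corepressor gene Tle3 (8 and 14) and Efnb2 (8 and 13).

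**Figure D3:**
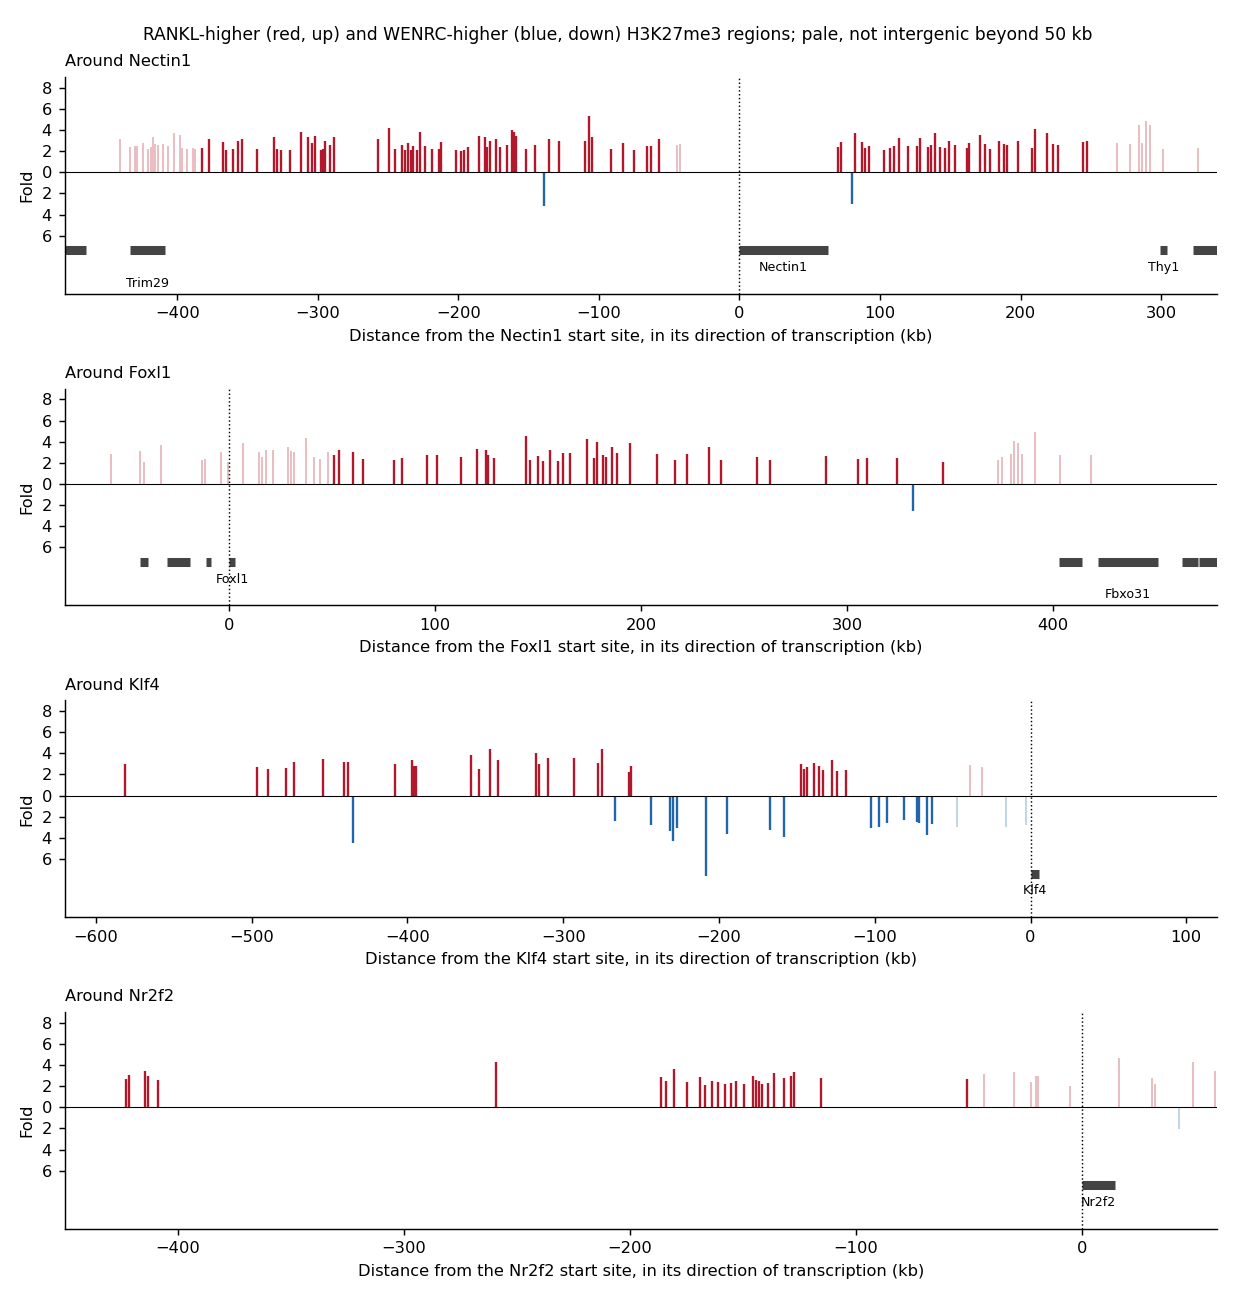
Authors' fold of differential regions by distance in kb from the start of Nectin1, Foxl1, Klf4 and Nr2f2, with RANKL-higher regions in red above the line, WENRC-higher regions in blue below it, pale lines for regions that are not intergenic beyond 50 kb, and grey bars for protein-coding genes (not all named). The gaps around Nectin1 and downstream of Foxl1 hold RANKL-higher regions with 3 WENRC-higher ones in the 2 panels together, whereas upstream of Klf4 both kinds alternate.

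The nearest gene, as annotated by the authors, was used to set the regions beside transcription; the genes that the regions act on, if any, are not known from these data. Regions were spread unevenly over the 1534 genes. A group of 646 genes had 1 region, 578 had 2 to 4, 222 had 5 to 9 and 88 had 10 or more; those 88 held 1442 regions (28.3%). Nectin1 had most, with 48, followed by Gpr26 (39), the non-coding 9430019J16Rik (34), Trim29 and Klf4 (33 each) and Foxl1 and Nr2f2 (29 each). Of the 1534 genes 1495 matched a gene of the GRO-seq table. The filter on low values (10 or more before log2 in at least 2 libraries) was passed by 1010, nearest to 3245 regions. That is 67.6% of the matched genes, as against 67.6% of all genes in the table; 65 genes were listed at 0 in every library. Gpr26, Trim29 and Foxl1 were among those below the filter. Where genes overlap, as Nr2f2, Gpc1, Zc3h12c, Cadm1, Oxsm, Pde3a and Lgr5 do with annotated neighbours, reads of the pair may not be told apart, because the strand handling of the counts is not given in the sources used here.

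Against WENRC, 97 of the 1010 tested nearest genes (9.60%) were higher in RANKL and 42 (4.16%) were lower (limma, Benjamini-Hochberg adjusted p under 0.05). Over all 16563 tested genes the shares were 8.53% and 3.62%, so both counts stood close to the background. The median log2 change was 0.02, with -0.01 over all tested genes. Higher calls made up 69.8% of the calls among nearest genes and 70.2% over all genes; when libraries were centred on their upper quartile, which shifted the median of all genes to -0.12, these shares were 52.3% and 53.3%.

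Against ENRI, 124 (12.3%) were higher and 91 (9.01%) lower, where the shares over all tested genes were 10.4% and 10.5%. The ENRI and WENRC comparisons share the RANKL libraries and are given side by side. The calls were lost when either RANKL library was left out: limma called no nearest gene against WENRC, with 110 to 117 higher and 64 to 66 lower at an unadjusted p under 0.05, and 7 to 9 higher and 1 lower against ENRI. The authors' deposited table called 187 (18.5%) higher and 148 (14.7%) lower against WENRC. Over all tested genes its shares were 16.7% and 11.1%.

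Genes with many regions were more often higher in RANKL than in ENRI. The share called higher was 9.95% of 432 genes with 1 region, 11.7% of 383 with 2 to 4, 16.2% of 142 with 5 to 9 and 24.5% (13) of 53 with 10 or more, with 5 of the 53 lower. Over all tested genes 10.4% were higher and 10.5% lower. The 13 became 9 in a fit of the 4 libraries compared, where 5.61% of all tested genes were higher. They were 12 under quantile normalization, 15 under upper quartile scaling and 14 in the authors' deposited table. The regions themselves were chosen against WENRC, not ENRI. Against WENRC the shares by number of regions were 8.10%, 9.40%, 14.1% and 11.3% (6 of 53), beside 8.53% of all tested genes. None of the 53 was called lower against WENRC by limma, beside 3.62% of all tested genes, and 3 were lower at an unadjusted p under 0.05. Lower calls among the 53 numbered 4 in a fit of the 4 libraries compared and 1 under upper quartile scaling. The authors' deposited table called 3 of them lower. These groups were compared by counts alone, with no test.

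**Figure D4:**
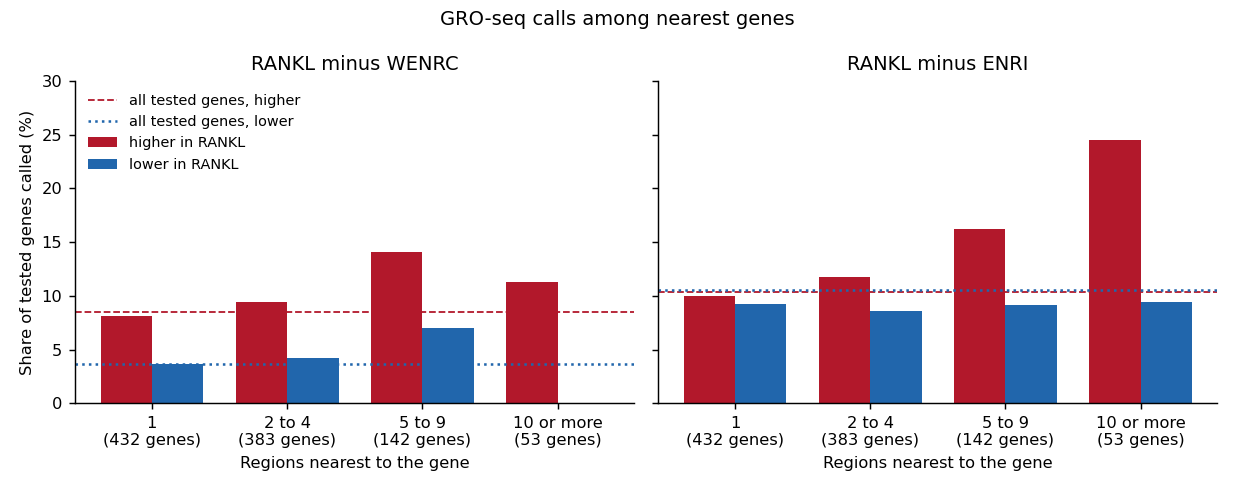
Share of tested nearest genes called higher (red) or lower (blue) in RANKL against WENRC (left) and ENRI (right), by the number of regions nearest to the gene, with dashed and dotted lines for the shares over all tested genes. The red bars in the right panel go from 9.95% to 24.5%, and there is no blue bar for the 53 genes with 10 or more regions in the left panel.

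Nectin1, beside the largest run, was transcribed more in RANKL. Its GRO-seq values (log2) were 11.51 and 11.66 in RANKL, 9.89 and 10.47 in ENRI, and 10.17 and 9.96 in WENRC. Both RANKL libraries were above all others. The log2 difference was 1.52 ± 0.22 (SE) against WENRC (limma, adjusted p = 0.0122) and 1.41 ± 0.22 against ENRI (adjusted p = 0.0113). No RANKL-higher or WENRC-higher region lay within 5 kb of its start, and the call against WENRC was lost without any 1 of the 4 libraries (adjusted p from 0.0745 to 0.157).

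Ackr3, at the left end of the second largest run, stood at 5.85 and 5.37 in RANKL, 2.70 and 2.83 in ENRI, and 2.70 and 3.02 in WENRC. The groups did not overlap, and the log2 difference against WENRC was 2.75 ± 0.23 (limma, adjusted p = 0.00309). Near its start the mark went the other way: 2 WENRC-higher regions lay 1079 bp upstream and 2421 bp downstream, with 15 against 35.1 and 11 against 26.1 tags. Its neighbour Cops8, at 8.35 and 8.47 in RANKL, 8.17 and 8.06 in ENRI and 8.12 and 7.91 in WENRC, passed neither test (limma, adjusted p = 0.157 and 0.226).

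Klf4 stood at 7.52 and 7.48 in RANKL, 8.89 and 9.74 in ENRI, and 7.55 and 8.03 in WENRC. It was lower in RANKL than in ENRI by a log2 difference of -1.82 ± 0.31 (limma, adjusted p = 0.0142), and the change against WENRC, the culture in which the mark was compared, was -0.29 ± 0.31 (adjusted p = 0.591). Nr2f2, with 29 regions all upstream, stood at 7.77 and 7.74 in RANKL, 7.46 and 7.20 in ENRI and 8.02 and 7.84 in WENRC, and passed neither test (limma, adjusted p = 0.132 and 0.539).

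A pair of the genes with most regions encode Polycomb proteins. Aebp2, an accessory subunit of PRC2 with 25 regions downstream of it (795 against 248 tags), stood at 10.86 and 10.76 in RANKL, 10.19 and 9.66 in ENRI, and 10.36 and 10.31 in WENRC. Its log2 difference was 0.88 ± 0.20 against ENRI (limma, adjusted p = 0.0288, and 0.0679 in a fit of the 4 libraries compared) and 0.48 ± 0.20 against WENRC (adjusted p = 0.173). Rybp, a subunit of variant PRC1 with 21 regions (715 against 258 tags), stood at 10.48 and 10.54, 10.24 and 10.35, and 9.99 and 9.93. Its difference against WENRC was 0.56 ± 0.13 (limma, adjusted p = 0.0421), a call that was lost under quantile normalization (0.32, adjusted p = 0.115) and upper quartile scaling (0.44, adjusted p = 0.0559).

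The other Polycomb genes were taken as lists. Of 11 tested PRC2 genes, Aebp2 included, 2 were higher in RANKL than in WENRC, Jarid2 and Ezh1, and 6 were higher than in ENRI, with none lower; the median log2 changes were 0.27 and 0.65, beside medians of -0.01 and -0.0048 over all tested genes, of which 8.53% and 10.4% were higher. The ENRI count was 2 in a fit of the 4 libraries compared, and 8 higher with 1 lower without ENRI replicate 1. Jarid2, which recruits PRC2, stood at 15.07 and 15.17 in RANKL, 12.56 and 12.70 in ENRI and 12.99 and 13.41 in WENRC. With either RANKL library left out, limma called no PRC2 gene, and under quantile normalization 1 was called against WENRC. Of 16 PRC1 genes 2 were higher than in WENRC, with a median change of 0.06 that became -0.05 under upper quartile scaling, and 4 were higher and 1 lower than in ENRI. The H3K27 demethylase genes Kdm6a and Kdm6b passed neither test (limma, adjusted p from 0.0694 to 0.923). Their log2 differences were 0.80 and 0.53 against WENRC, and 0.46 and 0.03 against ENRI. In the authors' deposited table (DESeq2) the adjusted p was 1.9e-05 and 0.000949 against WENRC, and 0.264 and 0.996 against ENRI.

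Among the other nearest genes with 10 or more regions, several rose in both comparisons. Adgrd1, an adhesion G protein-coupled receptor with 12 regions (574 against 184 tags, 114 to 186 kb downstream), stood at 13.19 and 13.23 in RANKL, 6.92 and 7.40 in ENRI and 7.45 and 6.88 in WENRC. Its difference against WENRC was 6.05 ± 0.25 (limma, adjusted p = 0.00123). Xylt1, which starts glycosaminoglycan chains and had 15 regions, stood at 11.33 and 11.38 in RANKL and at 9.25 and 9.06 in WENRC (difference 2.20 ± 0.19, limma adjusted p = 0.00315). Kif26a, a kinesin-family gene with 12 regions, stood at 6.61 and 6.34 in RANKL and at 3.79 and 4.15 in WENRC (difference 2.50 ± 0.22, limma adjusted p = 0.00325). The groups did not overlap in any of the 3, which adds nothing to calls with differences this large. Near the start Kif26a had 2 RANKL-higher regions, and Adgrd1 and Xylt1 had 1 WENRC-higher region each. Xylt1 and Kif26a were named after their values were seen, to account for all 6 genes called higher.

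Of the genes with 10 or more regions that were lower than in ENRI, Atp5g3, a subunit of ATP synthase with 23 regions, stood at 7.81 and 8.01 in RANKL, 8.85 and 9.22 in ENRI and 8.71 and 8.12 in WENRC (difference against ENRI -1.12 ± 0.25, limma adjusted p = 0.0279). Gpam, a mitochondrial acyltransferase of lipid synthesis with 24 regions, was on the other side, at 9.17 and 9.36 in RANKL, 7.57 and 7.95 in ENRI and 8.62 and 8.32 in WENRC (difference against ENRI 1.5 ± 0.20, limma adjusted p = 0.00695). The remaining members of the 5 lower genes were Klf4 and, named after their values were seen, Mylip, Pctp and Bach2.

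**Figure D5:**
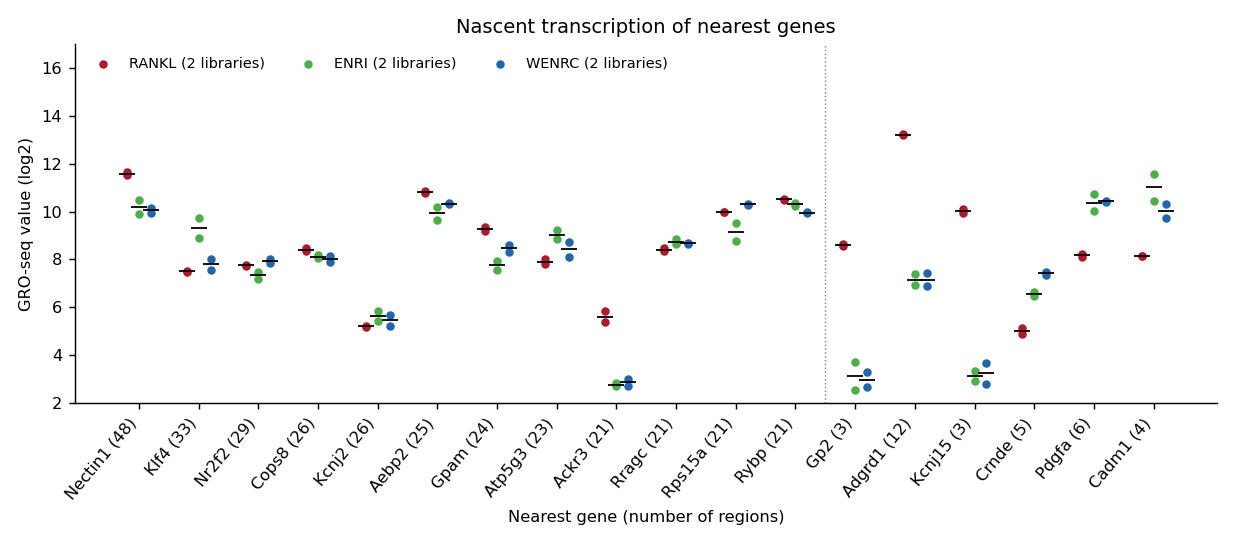
GRO-seq values (log2) of 18 nearest genes in the 6 libraries, with 2 points per culture and a black bar at their mean, and the number of regions in brackets; left of the dotted line are tested genes with 21 or more regions, right of it genes with large changes. Nectin1 and Ackr3 are higher in both RANKL libraries than in all others, Klf4 and Atp5g3 are below both ENRI libraries, and Gp2, Adgrd1 and Kcnj15 stand over 5 log2 units above WENRC.

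The mark at the start of the same genes was then set beside their transcription. Of the 1010 tested nearest genes 297 (29.4%) also had a RANKL-higher region within 5 kb of their start and 82 (8.12%) a WENRC-higher one. Among the 42 genes that were lower in RANKL than in WENRC, 22 (52.4%) had a RANKL-higher region there and 1 had a WENRC-higher one. Among the 97 that were higher, 14 (14.4%) had a RANKL-higher region and 23 (23.7%) a WENRC-higher one. Set out by start, 7.41% of the 297 were lower and 4.71% higher, while 28.0% of the 82 were higher and 1.22% lower. With neither kind at the start, 9.28% of 657 were higher and 3.04% lower, close to the 8.53% and 3.62% over all tested genes.

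Some of the largest rises among nearest genes with 3 or more regions had WENRC-higher mark near the start. Their distal regions are RANKL-higher by the choice of regions, so only the mark near the start was free to differ. Kcnj15, an inwardly rectifying potassium channel, had 3 RANKL-higher regions 82.2 to 125 kb upstream (82 against 19.8 tags in all) and a WENRC-higher region 900 bp into the gene (4 against 15.3 tags). It stood at 9.95 and 10.11 in RANKL, 2.92 and 3.33 in ENRI, and 2.80 and 3.68 in WENRC. The difference against WENRC was 6.79 ± 0.33 (limma, adjusted p = 0.00123).

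Gp2 had 3 regions 85.4 to 112 kb downstream of its start (100 against 33.3 tags) and a WENRC-higher region 3479 bp upstream of it (4 against 21.6 tags). Its difference against WENRC was 5.62 ± 0.42 (limma, adjusted p = 0.00209). Outside RANKL only ENRI replicate 2 (3.72) reached the filter value of 10 before log2, so Gp2 needed its RANKL values to be tested. Guca2b, which encodes the gut peptide uroguanylin, stood at 9.22 and 9.37 in RANKL, 8.82 and 9.60 in ENRI and 5.41 and 5.12 in WENRC, so RANKL and ENRI overlapped. It too had a WENRC-higher region near its start, 3717 bp upstream (4 against 18.0 tags), beside 3 distal RANKL-higher ones. Among the largest rises against WENRC, Kcnj15, Adgrd1, Gp2, Guca2b and the glypican gene Gpc1 had WENRC-higher mark less than 5 kb from the start; Btbd11 and Gpc1 had RANKL-higher ones; and Nlrp1c-ps had neither.

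Of the 8 largest falls against WENRC, 7 had a RANKL-higher region within 5 kb of the start, all but Oxsm, and in 4 (Crnde, Zc3h12c, Cadm1 and Ass1) such a region covered the start. The Zc3h12c call was lost under quantile normalization (-2.12, limma adjusted p = 0.0563). Crnde, a long non-coding RNA, stood at 5.15 and 4.87 in RANKL, 6.47 and 6.62 in ENRI, and 7.47 and 7.36 in WENRC, with a difference against WENRC of -2.40 ± 0.20 (limma, adjusted p = 0.00268). Over its start lay a region of 6605 bp, chr8:94876184-94882789, with 602 against 260 tags, which also took in the start of the homeobox gene Irx5. Irx5 stood at 3.98 and 4.14 in RANKL, 4.39 and 4.84 in ENRI and 4.93 and 5.26 in WENRC (difference against WENRC -1.03 ± 0.24, limma adjusted p = 0.0445; adjusted p = 0.0643 with no filter on low values).

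Ass1, which makes argininosuccinate for arginine synthesis, stood at 5.63 and 5.89 in RANKL, 6.74 and 5.77 in ENRI, and 7.19 and 7.67 in WENRC. It was below WENRC by -1.67 ± 0.36 (limma, adjusted p = 0.0373), whereas RANKL and ENRI overlapped. Under quantile normalization the call was lost (-1.62, adjusted p = 0.0501). A region of 1733 bp over its start, chr2:31325034-31326767, held 106 against 22.5 tags (authors' fold 4.71), and 5 distal regions lay 51.2 to 90.2 kb upstream (173 against 55.8 tags).

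The sequence before the start is shown for the pair of these 4 genes with a single promoter entry in the RefSeq table used (build GRCm38.p6), because in both the mark lay over the start itself. Each line gives the 250 bases before the start, 5′ to 3′ on the gene's strand as listed, with CG dinucleotides, which read the same on both strands, in capitals.
Crnde: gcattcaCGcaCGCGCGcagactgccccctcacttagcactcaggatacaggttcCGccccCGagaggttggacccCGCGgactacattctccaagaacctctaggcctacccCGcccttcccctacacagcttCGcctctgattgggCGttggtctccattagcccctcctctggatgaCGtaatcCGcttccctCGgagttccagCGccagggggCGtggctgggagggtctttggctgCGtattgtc
Ass1: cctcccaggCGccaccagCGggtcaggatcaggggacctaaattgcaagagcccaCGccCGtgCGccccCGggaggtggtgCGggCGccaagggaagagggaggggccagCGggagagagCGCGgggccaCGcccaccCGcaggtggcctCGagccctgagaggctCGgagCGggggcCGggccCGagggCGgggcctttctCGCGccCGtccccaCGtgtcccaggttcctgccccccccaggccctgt
The Crnde stretch, on the minus strand of chromosome 8, holds 17 CG and is 62.0% G or C; the Ass1 stretch, on the plus strand of chromosome 2, holds 23 and is 75.6% G or C. The median over all 32851 promoters of the table was 6, and 23.5% and 13.3% of them held at least as many CG as Crnde and Ass1. Promoter entries were found for 1138 of the 1534 nearest genes.

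Cadm1, an adhesion molecule of the immunoglobulin family, stood at 8.14 and 8.16 in RANKL, 11.57 and 10.46 in ENRI and 10.29 and 9.72 in WENRC, with differences of -1.86 ± 0.38 against WENRC (limma, adjusted p = 0.0309) and -2.86 ± 0.38 against ENRI (adjusted p = 0.00704). The region over its start was 11237 bp long and held 693 against 213 tags. Pdgfa, a growth factor of epithelium acting on mesenchyme, stood at 8.23 and 8.10 in RANKL, 10.03 and 10.72 in ENRI, and 10.45 and 10.41 in WENRC, and lay below both cultures by -2.27 ± 0.23 and -2.21 ± 0.23 (limma, adjusted p = 0.00522 and 0.00398). A 5955 bp region 3630 bp upstream of its start held 373 against 89.1 tags, beside 6 distal regions downstream.

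Against ENRI the largest falls were Pde3a, a cyclic nucleotide phosphodiesterase, Cadm1, Agpat9, Pdgfa, Agtpbp1, Sec16b, Klf4 and the homeobox gene Meis1. Pde3a stood at 8.54 and 8.50 in RANKL, 11.43 and 12.34 in ENRI and 10.27 and 9.60 in WENRC (difference against ENRI -3.36 ± 0.35, limma adjusted p = 0.00379). ENRI has no H3K27me3 library among the samples. Where regions are set beside the ENRI comparison, they therefore give the mark against WENRC only.

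Lists of gene families were set beside the nearest genes, with counts only. Homeobox and paired box factors supplied 29 nearest genes with 143 regions, and Sox, T-box, forkhead and basic helix-loop-helix factors 21 with 70. Only 13 and 7 of these genes passed the filter. Of the 13 homeobox and paired box genes 1, Irx5, was lower than in WENRC and none higher. Against ENRI Pax8 and Meis1 were lower, and Pitx1, a limb and pituitary factor with 11 regions upstream, was higher (6.42 and 6.46 against 5.32 and 4.99, difference 1.29 ± 0.20, limma adjusted p = 0.0117). Over all tested genes 3.62% were lower and 8.53% higher than in WENRC, and 10.5% and 10.4% than in ENRI, so that these counts among 13 genes lay near the background. The Meis1 call was lost in a fit of the 4 libraries compared (adjusted p = 0.0805). Within 5 kb of the start, Pitx1 and Meis1 had 3 RANKL-higher regions each, Irx5 had 1 and Pax8 had none. Pitx1 was not called against WENRC (difference 0.36, limma adjusted p = 0.305). Receptors and ion channels supplied 18 genes with 68 regions, cadherins and protocadherins 5 with 24, and odorant, vomeronasal and taste receptors 8 with 13, none of the last tested.

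Stem cell markers supplied 4 nearest genes, with 8 regions in all. Lgr5, the receptor that marks crypt base stem cells, had 1 region 72.9 kb upstream (18 against 4.5 tags) and a 4292 bp RANKL-higher region over its start (303 against 92.7 tags). It stood at 8.75 and 8.84 in RANKL, 8.89 and 8.51 in ENRI and 11.64 and 11.99 in WENRC (difference against WENRC -3.02 ± 0.19, limma adjusted p = 0.00166). Axin2 (2 regions), Nkd1 (4) and Olfm4 (1) were higher than in ENRI and not called against WENRC by limma. Axin2 had no differential region within 5 kb of its start. Nkd1 had 4 RANKL-higher regions there, and 1 covered the start (135 against 54.0 tags). Its difference against WENRC was -0.26 (limma, adjusted p = 0.542). Olfm4 had 3 RANKL-higher regions within 5 kb of its start, yet stood at 10.90 and 11.05 in RANKL and at 8.83 and 9.12 in WENRC (difference 2.0 ± 0.67, limma adjusted p = 0.112). The limma error is pooled over the 3 cultures, and Olfm4 stood at 5.14 and 7.41 in ENRI. In the authors' deposited table (DESeq2) its adjusted p against WENRC was 5.46e-36.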

How the data were processed

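H3K27me3 ChIP-seq and GRO-seq files were used as the authors deposited them. Per the submitters' processing notes, Bowtie2 2.3.4.1, HOMER and DESeq2 were used with the mouse build mm9. The deposited differential regions give tag counts per region (the deposited signal of 1 culture over the other), the authors' fold and the authors' p-value; the RANKL counts pool 2 libraries, WENRC counts are multiples of 0.9, and empty WENRC regions are set to 0.5. The deposited GRO-seq table gives log2 values with the shape of a regularized log; the transform, depth and gene counts are not given in the sources used here. The authors' deposited log2 fold changes have the opposite sign to RANKL minus WENRC and were turned. No per-sample column was left unmapped (0 columns), 12 blank lines of the WENRC list were dropped, and 26 gene symbols that had become dates were restored.

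Genes with at least 2 libraries at a value of 10 or more before log2 were tested with limma 3.58.1 (R 4.3.3, trend, 6 libraries in 1 fit of 3 culture means). They were called at a Benjamini-Hochberg adjusted p under 0.05 over all tested genes. Calculations on regions used Python 3.11.15, and the limma step was tested on simulated data. Nothing in the labels says that RANKL libraries came from separate animals, so p-values measure only the spread between these libraries.

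Regions and lists were chosen with earlier results of these data known. Named genes were the 20 with most regions, the 8 largest called rises and falls per comparison among genes with at least 3 regions, and up to 6 called genes per list; named regions were the 8 with most tags, the 8 of largest fold, the 5 longest, the 5 farthest, the 5 largest runs and the 3 on each side of the distance limit. A gene that this rule names is not reported here. Alternatives covered scaling, filters, libraries left out, the replicate number as a block, the authors' table, distance, fold and gap limits. Beyond their counts, densities and fold, regions on other chromosomes were left out. ENRI has no H3K27me3 library among the samples.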

Additional observations from a re-analysis of the deposited data

Results flagged for a closer look

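Chromosome X, which the choice of regions leaves out, held 2665 RANKL-higher intergenic regions over 50 kb from a start site, or 16.0 per Mb against 2.06 per Mb on chromosomes 1 to 19, with a median authors' fold of 3.02. WENRC-higher regions of the same kind numbered 539 on chromosome X, or 3.24 per Mb against 1.44 per Mb.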

How the results depend on the processing

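The H3K27me3 values have no replicate error, and the GRO-seq calls rest on 2 libraries per culture. The number of regions was 2637 beyond 100 kb, 2435 at an authors' p of at most 1e-06 and 7760 on every chromosome and contig. Regions at 4-fold or more numbered 449 with 1 tag added to both cultures, and 2650 reached 3-fold; the median fold was 2.80 with 1 tag added and 2.72 with WENRC unscaled. A gap of 10 kb gave 2804 runs. A WENRC-higher region overlapped 5 regions and lay within 10 kb of 801. Against WENRC, nearest genes called higher and lower numbered 202 and 159 in a fit of the 4 libraries compared, 187 and 148 in the authors' deposited table, 26 and 10 among genes with at least 5 regions, and 44 and 16 among genes with a region of 4-fold or more. The lower calls were 74 (7.33%) under upper quartile scaling and 64 (6.34%) under quantile normalization, with median changes of -0.0969 and -0.0673. Over all tested genes the lower shares were then 6.59% and 5.41%, and the medians -0.122 and -0.0597. Leaving out 1 library gave 0 to 23 higher and 0 to 4 lower calls. Against ENRI, 36 higher (18.5%) and 18 lower (9.23%) calls were among genes with at least 5 regions. Those with a region of 4-fold or more had 50 (13.6%) and 31 (8.40%), beside 10.4% and 10.5% of all tested genes. A fit of 4 libraries gave 49 lower calls (4.85%), beside 6.01% of all tested genes. Leaving out 1 library gave 7 to 250 higher and 1 to 179 lower calls, and medians from -0.0152 to 0.0605; the median was 0.0681 with the filter at log2 of 50 and -0.0710 in the authors' deposited table. Except where the alternative tests fewer genes or libraries, the cause was not tested. Of 763 alternative values of single named genes, 625 kept their side of the threshold, 129 lost and 9 gained a call, and 0 called values changed direction.

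With the replicate number as a block, 80 nearest genes (7.92%) were higher and 29 (2.87%) lower than in WENRC. Over all tested genes this fit called 6.38% and 2.46%. Against ENRI 112 (11.1%) were higher and 77 (7.62%) lower, beside 8.11% and 8.27% of all tested genes. The PRC2 genes called higher than in ENRI then numbered 4, and the calls of Ass1, Zc3h12c, Rybp and, against ENRI, Foxa2 were lost (adjusted p = 0.059, 0.0507, 0.0914 and 0.0594). The ENRI and WENRC libraries share mouse numbers (correlation of same-numbered deviations 0.414), but the RANKL numbers name no mouse. The same correlation was -0.323 for RANKL with WENRC and -0.205 for RANKL with ENRI. Deviations within a culture mirror each other, so swapping the RANKL numbers would only turn the sign of these values. The correlations therefore cannot show whether the RANKL libraries pair with the others, and both comparisons made here involve RANKL.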
